A study of Penicillium oxalicum with 9 samples.

Results

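In *P. oxalicum*, 108 of the 9721 genes listed in every library were higher in the mutant Δ*rsrA* than in the parental strain Δ*ku70*, while their level in the mutant Δ*rsrB* stayed near that of Δ*ku70*. These genes were chosen by their values on the log2(FPKM + 1) scale, where FPKM counts fragments relative to the length of the transcript and to the mapped fragments of the library. A gene was taken when its mean in Δ*rsrA* was at least 1.5 above that in Δ*ku70*, its mean in Δ*rsrB* differed from that in Δ*ku70* by less than 0.5 in either direction, its 3 values in Δ*rsrA* lay above its 6 values in Δ*rsrB* and Δ*ku70*, and its 3 values in Δ*ku70* spanned at most 1.5. A run of 12 consecutive identifiers, POX08682 to POX08693, was left out. Because all 9 libraries took part in this choice, the differences between the strains given here describe the genes that were chosen and are no test of them.

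The study compared 3 strains, with 3 libraries each. In Δ*rsrA* the gene POX01907 (*rsrA*) was deleted in deltaPoxKu70, and in Δ*rsrB* the gene POX08340 (*rsrB*) was deleted in the same parent. The parental strain Δ*ku70*, called WT by genotype in the labels and PoxKu70_WT by title, lacks *ku70* itself and carries hygromycin resistance, which all 3 strains therefore share, and the mutants also carry a G418 resistance gene. RNA came from whole mycelium grown from spores of 4 days into glucose medium for 24 h and then moved to inducing medium for 24 h. The labels name the carbon source of that medium as raw starch in one place and as Avicel in another, and the methods name commercial starch of corn. The paper mentions independent transformants of each mutant for its enzyme assays, and whether the RNA libraries came from 1 transformant or several is not given in the sources used here.

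*P. oxalicum* is a filamentous fungus that secretes enzymes able to digest starch granules that have not been cooked. RsrA is a transcription factor with SANT-like domains, a kind of domain found in proteins that bind DNA or chromatin, and RsrB is a transcription factor of the zinc cluster family, which is common in fungi. Both are known as positive regulators of raw starch-degrading enzymes, and *rsrB* is known to depend on *rsrA*. The identifiers of the lists are an older set that no table at hand pairs with gene names, so the 108 genes are given by identifier and neither function nor sequence is attached to them.

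The deleted genes were checked first. The gene *rsrA* (POX01907) was at 0.01, 0.01 and 0.04 FPKM in Δ*rsrA*, against 24.23, 20.41 and 19.88 FPKM in Δ*rsrB* and 22.87, 17.08 and 16.52 FPKM in Δ*ku70*. The gene *rsrB* (POX08340) was listed at 0 in the 3 libraries of Δ*rsrB* and averaged 7.85 ± 0.51 FPKM in Δ*rsrA*, against 32.3 ± 2.9 FPKM in Δ*ku70* (SD, n = 3 each). The level of *rsrB* was thus reduced in Δ*rsrA*, by 1.91 on the log2 scale (limma, adjusted p = 0.000405), but not lost.

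The depth of the libraries is unknown, and the values of weakly expressed genes gave relative depths between 0.984 and 1.00 of that of Δ*ku70* replicate 2. One library stood apart. Across all listed genes, Δ*ku70* replicate 1 correlated with the other libraries of its strain at r = 0.915 and 0.906, whereas those 2 correlated with each other at 0.984, the libraries of Δ*rsrA* among themselves at 0.986 to 0.994 and those of Δ*rsrB* at 0.977 to 0.991. Over the 108 genes, which were held to a small span in Δ*ku70*, the same library correlated with its replicates at 0.974 and 0.973. The number of genes chosen, their differences from Δ*ku70*, the calls and the shares of neighbouring genes are given with and without it.

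The members were mostly moderately expressed genes that stood among the higher genes of Δ*rsrA* and among the lower genes of the other strains. The mean FPKM of a member had a median of 70.1 in Δ*rsrA* and ranged there between 2.95 and 2448. In Δ*rsrB* the median was 13.4, with a range of 0.0833 to 905, and in Δ*ku70* it was 11.5, with a range of 0 to 822. The other genes with a mean of at least 1 FPKM over the 9 libraries had medians of 21.6 FPKM (Δ*rsrA*), 28.1 FPKM (Δ*rsrB*) and 28.8 FPKM (Δ*ku70*). Over the libraries of Δ*rsrB* and Δ*ku70* alone, 17 members had a mean under 1 FPKM and passed this filter only through Δ*rsrA*. The lower medians of the members in Δ*rsrB* and Δ*ku70* against these other genes are therefore partly given by the filter. Ranked among all listed genes, the median member stood at the 79.7th percentile in Δ*rsrA*, against the 37.9th in Δ*rsrB* and the 33.6th in Δ*ku70*. Above the 75th percentile there were 60 members in Δ*rsrA*, while 21 were there in Δ*rsrB* and 20 in Δ*ku70*.

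**Figure D1:**
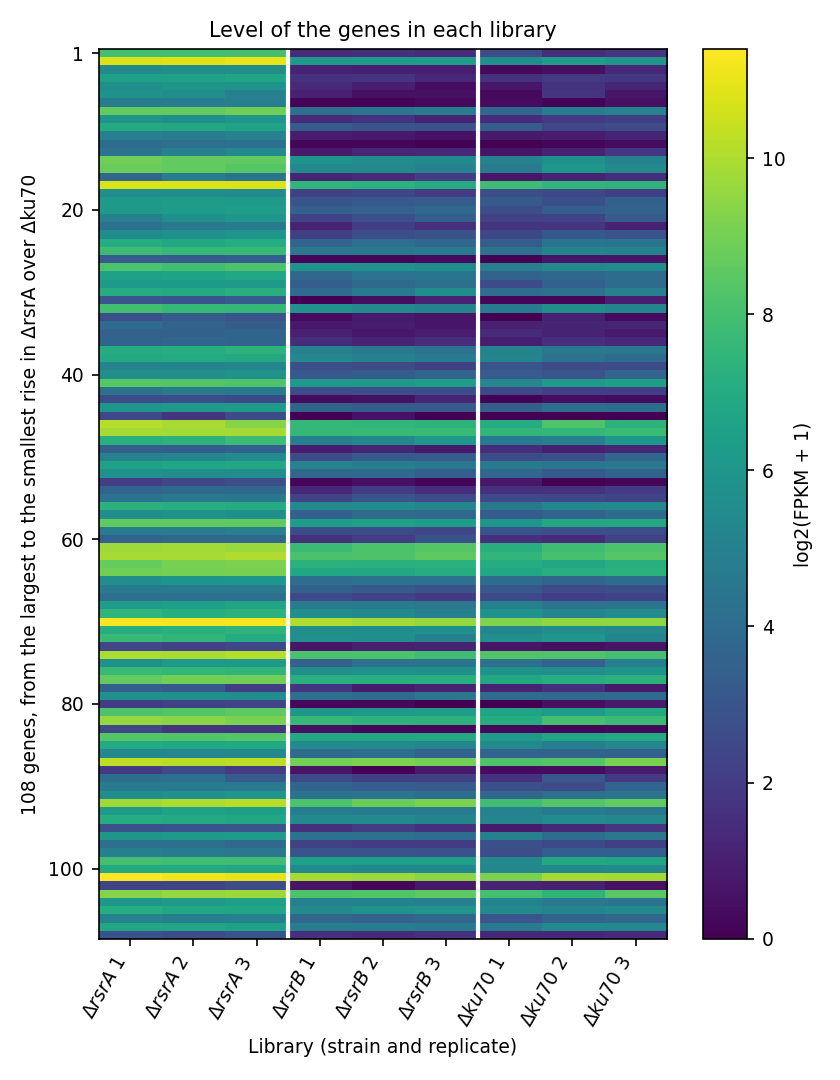
Level of the 108 genes (rows, ordered from the largest to the smallest difference between Δ*rsrA* and Δ*ku70*) in each of the 9 libraries (columns), with log2(FPKM + 1) as colour. The 3 columns of Δ*rsrA* are brighter than the 6 columns of Δ*rsrB* and Δ*ku70* in every row, as the choice of the genes requires, and the level itself varies widely from row to row.

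Together the 108 genes held 2.53%, 2.53% and 2.67% of the FPKM total in the libraries of Δ*rsrA*. In Δ*rsrB* their share was 0.650%, 0.631% and 0.617%, and in Δ*ku70* it was 0.534%, 0.621% and 0.662%. The shares in Δ*rsrB* and Δ*ku70* overlapped. The 5 members with the highest level in Δ*rsrA* made up 36.5% of the members' FPKM in that strain, so the share of the total rested in good part on a few genes. More expressing hyphae and more RNA of these genes per hypha in Δ*rsrA* cannot be told apart in such whole-mycelium libraries.

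The difference between Δ*rsrA* and Δ*ku70* ranged from 1.51 to 6.03 on the log2 scale, with a median of 2.08 and quartiles of 1.74 and 2.83. It was under 2 in 49 members, at least 3 in 20 and at least 4 in 9. As a ratio of mean FPKM, computed for the 104 members with no Δ*ku70* library at 0, the range was 2.72 to 106 and the median 4.81, and 22 of these members had a ratio of at least 10. Against Δ*rsrB* the difference ranged from 1.14 to 6.51, with a median of 2.01. Between Δ*rsrB* and Δ*ku70* it ran from -0.48 to 0.48, with a median of 0.05, and was above 0 in 60 members and below 0 in 48. The values of Δ*rsrB* and Δ*ku70* overlapped in 100 members, while in 6 the values of Δ*rsrB* were all above those of Δ*ku70* and in 2 they were all below. Without Δ*ku70* replicate 1, which leaves fewer values to overlap with, these counts were 77, 12 and 19. The limit of 0.5 between Δ*rsrB* and Δ*ku70* favours such overlap, and no share over all genes is given beside the counts. Nothing is read from them. Without Δ*ku70* replicate 1 the median difference between Δ*rsrA* and Δ*ku70* was 2.01, with a range of 1.10 to 6.36, and 12 members would have been under the limit of 1.5. The difference between Δ*rsrB* and Δ*ku70* then ran from -0.65 to 0.79, with a median of -0.04. In 10 members it was then 0.5 or more in either direction and so outside the limit, and 6 of these were lower in Δ*rsrB*.

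With limma, all 108 members were called raised in Δ*rsrA* against Δ*ku70* at an adjusted p under 0.05, where 9.74% of the 8550 genes tested were, and their values did not overlap between these strains, as was so for 15.0% of the genes tested. Against Δ*rsrB* all 108 were called raised as well, where 15.2% of 8491 genes were, and they did not overlap, as was so for 17.0%. The genes were chosen on the same values, and nothing is read from these counts. In Δ*rsrB* against Δ*ku70*, 91 members passed the filter of a mean of 1 FPKM and 0 were called in either direction, where 3.95% of 8597 genes were (limma). At an unadjusted p under 0.05 it was 1 of the 91 members, against 2085 of the 8597 genes tested (limma). The limit of 0.5 on this difference was set on the same values. Without Δ*ku70* replicate 1 the share of all genes called was 10.9% in this comparison, and POX06725 was the 1 member called, lower in Δ*rsrB* (limma, log2 difference -0.60, SE 0.14, adjusted p = 0.0499). In Δ*rsrA* against Δ*ku70*, 13.2% of all genes were called raised without that library, and all 108 members were.

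Most genes tested were lower in Δ*rsrA* than in the other strains with the deposited values, by amounts that varied widely. Over genes with a mean of at least 1 FPKM in the 9 libraries, the difference from Δ*ku70* had quartiles of -0.75 and 0.20. Whether this shift stems from the scaling or from a larger number of lowered genes was not tested. The median difference between Δ*rsrA* and Δ*ku70* over all genes tested was -0.29 in the deposited values, and 0.02 after scaling each library by its median of ratios. The median of the members was 2.08 and 2.38 on these scales, and all 108 were above 0 on both. With the deposited values limma called 833 genes raised and 2477 lowered in Δ*rsrA* against Δ*ku70*, and after median of ratios scaling 1526 raised and 1251 lowered. Against Δ*rsrB* the calls were 1294 raised and 3829 lowered, and 2217 raised and 2010 lowered after scaling. The number of genes that meet the limits depends on the scaling: it was 195 after median of ratios scaling, and these include all 108.

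Of all listed genes, 267 were at least 1.5 higher in Δ*rsrA* than in Δ*ku70*. In 135 of them the mean in Δ*rsrB* was within 0.5 of that in Δ*ku70*, in 105 it was higher by 0.5 or more and in 27 it was lower by 0.5 or more. Of the 135, 7 were dropped because a value of Δ*rsrA* was not above all others and 15 because the libraries of Δ*ku70* spanned more than 1.5. Of the 113 that remained, 5 belonged to the run left out. The same limits turned round took 158 genes lower in Δ*rsrA* alone, 51 genes higher in Δ*rsrB* alone and 14 genes lower in Δ*rsrB* alone, counted with the deposited values.

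**Figure D2:**
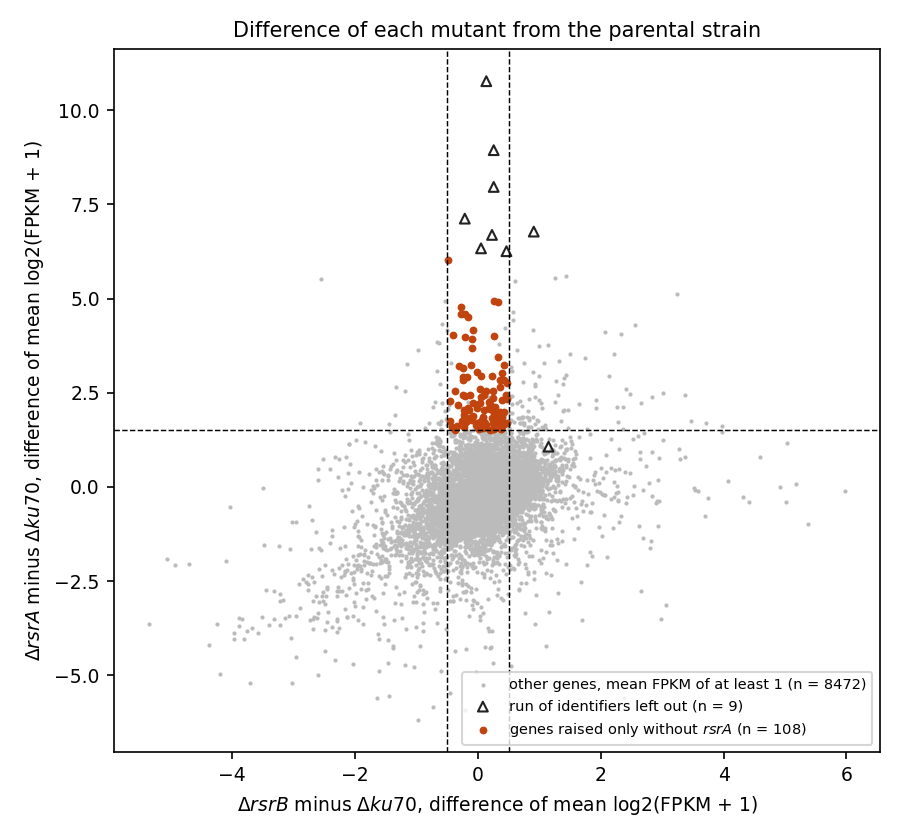
Difference of mean log2(FPKM + 1) of Δ*rsrA* from Δ*ku70* (vertical axis) against that of Δ*rsrB* from Δ*ku70* (horizontal axis) for genes with a mean of at least 1 FPKM over the 9 libraries, where both axes share the libraries of Δ*ku70*. The 108 genes (filled points) lie above the dashed line at 1.5 and between those at -0.5 and 0.5, with a median of 2.08 on the vertical axis, and triangles mark the run of identifiers left out.

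The largest difference was that of POX02475. Its FPKM was 242.14, 243.62 and 258.14 in Δ*rsrA*, against 1.58, 1.98 and 1.64 in Δ*rsrB* and 5.07, 1.72 and 2.36 in Δ*ku70*. The 3 libraries of Δ*rsrA* were close to one another and far above the rest, and the log2 difference from Δ*ku70* was 6.03. The highest value in Δ*ku70* was that of replicate 1, the library that stood apart, and without it the difference was 6.36. POX02475 was also the member nearest to the limit in Δ*rsrB*, with -0.48, which was -0.15 without that library.

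POX07964 combined a high level with a large difference, and was the one gene among both the 5 largest differences and the 5 highest levels. It had 1804.28, 1909.77 and 2077.23 FPKM in Δ*rsrA*, against 68.04, 77.71 and 76.22 FPKM in Δ*rsrB* and 49.54, 76.94 and 61.00 FPKM in Δ*ku70*. The difference from Δ*ku70* was 4.95 on the log2 scale, a ratio of 30.9 between the means.

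The other 3 of the 5 largest differences belonged to genes that were near or below 3 FPKM without the deletion of *rsrA*. POX01013 had 43.41, 48.72 and 48.88 FPKM in Δ*rsrA*, against 1.10, 0.93 and 0.92 FPKM in Δ*rsrB* and 0.18, 0.37 and 1.46 FPKM in Δ*ku70*, a log2 difference from Δ*ku70* of 4.92. POX06300 had 90.11, 91.10 and 104.99 FPKM in Δ*rsrA*, against 2.11, 2.29 and 1.42 FPKM in Δ*rsrB* and 2.16, 2.88 and 2.60 FPKM in Δ*ku70*, a difference of 4.77. POX06584 had 50.49, 58.26 and 55.04 FPKM in Δ*rsrA*, against 1.59, 0.97 and 0.32 FPKM in Δ*rsrB* and 0.63, 2.23 and 1.27 FPKM in Δ*ku70*, a difference of 4.60. In each of these genes the values of Δ*rsrB* and Δ*ku70* overlapped.

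The 5 members with the highest level in Δ*rsrA* all exceeded 1000 FPKM there, as did 7 members in all. POX04189 had 2532.63, 2404.61 and 2406.88 FPKM in Δ*rsrA*, against 1060.23, 887.38 and 767.72 FPKM in Δ*rsrB* and 597.54, 731.36 and 726.12 FPKM in Δ*ku70*. Its level was already high without the deletion of *rsrA*, and the log2 difference from Δ*ku70* was 1.84, with the 3 values of Δ*rsrB* above the 3 of Δ*ku70*. POX08322 had 2697.28, 2259.75 and 2094.40 FPKM in Δ*rsrA*, against 951.38, 811.80 and 691.40 FPKM in Δ*rsrB* and 573.12, 964.93 and 926.72 FPKM in Δ*ku70*, a difference of 1.54 that is close to the limit. POX03937 had 1228.62, 1165.70 and 1243.69 FPKM in Δ*rsrA*, against 494.74, 562.58 and 519.33 FPKM in Δ*rsrB* and 299.98, 325.02 and 543.90 FPKM in Δ*ku70*, a difference of 1.69. In POX07854 the strains were farther apart, with 1723.88, 1787.23 and 1759.43 FPKM in Δ*rsrA*, against 180.30, 153.63 and 128.78 FPKM in Δ*rsrB* and 228.00, 177.90 and 167.55 FPKM in Δ*ku70*, and the difference from Δ*ku70* was 3.21.

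**Figure D3:**
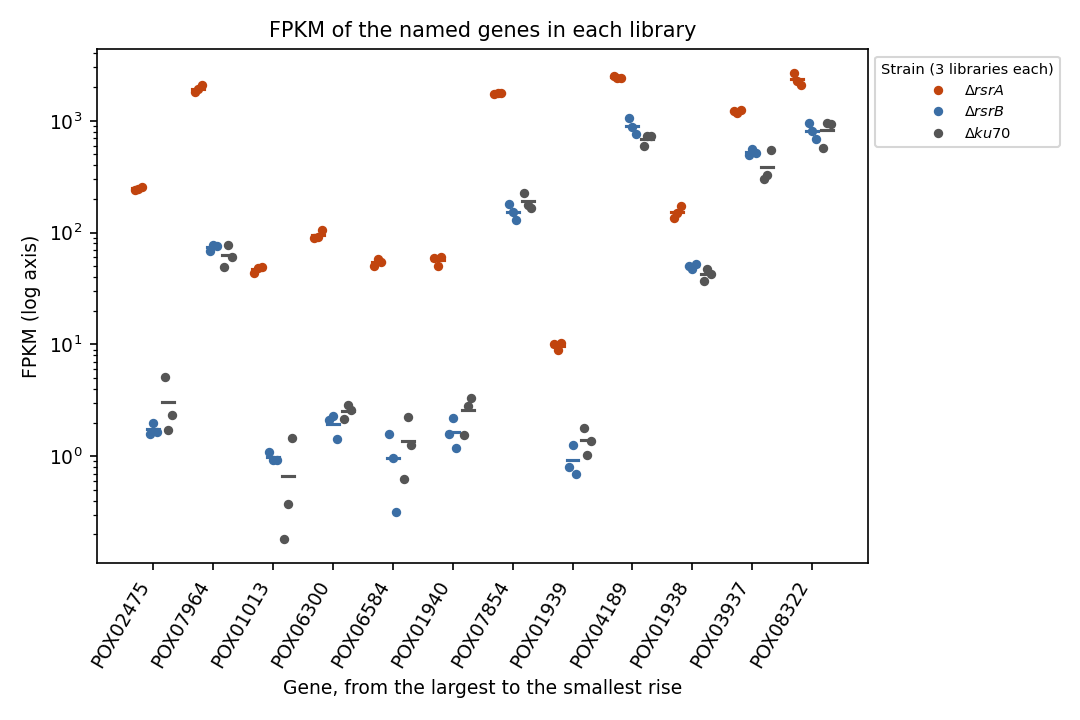
FPKM (log axis) of the 12 genes with the largest differences, with the highest levels in Δ*rsrA* or in the run of 3 consecutive identifiers, ordered from the largest to the smallest difference between Δ*rsrA* and Δ*ku70*. Points are the 3 libraries of each strain and short lines their means. The points of Δ*rsrA* lie above all others in each gene, between 8.91 FPKM in POX01939 and 2697.28 FPKM in POX08322.

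Members were found at every level of Δ*ku70*. Of the genes under 1 FPKM in that strain, 15 of 1132 (1.33%) were members, of those from 1 to 10 FPKM 35 of 1883 (1.86%), of those from 10 to 100 FPKM 42 of 5065 (0.829%), and of those of 100 FPKM or more 16 of 1641 (0.975%). The median log2 difference from Δ*ku70* was 2.32, 2.40, 1.97 and 1.83 in these classes, and the median ratio of mean FPKM, over members with a mean above 0 in Δ*ku70*, 17.6, 7.0, 3.96 and 3.55. The added 1 in log2(FPKM + 1) shrinks the difference of weakly expressed genes, so the ratios fall more steeply than the differences. A class also shares its Δ*ku70* values with the ratio, so these 2 quantities are not independent.

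In 8 members the 6 values of Δ*rsrB* and Δ*ku70* were all under 1 FPKM. The highest of these in Δ*rsrA*, picked here after the values were seen, was POX04807, with 26.98, 28.09 and 28.29 FPKM in Δ*rsrA*, against 0.09, 0.09 and 0.18 FPKM in Δ*rsrB* and 0.26, 0.09 and 0.44 FPKM in Δ*ku70*. Its low values lie near whole multiples of 0.09. POX03581 had 15.38, 16.94 and 17.07 FPKM in Δ*rsrA*, against 0.10, 0.10 and 0.05 FPKM in Δ*rsrB* and 0.05, 0.14 and 0.29 FPKM in Δ*ku70*. The ratios of such genes rest on very few fragments in Δ*rsrB* and Δ*ku70*. A library at 0 was found for 4 members in Δ*rsrB* and 4 in Δ*ku70*, which makes 6 genes in all. In Δ*rsrA* it was 0 members, which the choice fixed in advance, because the values of Δ*rsrA* had to lie above all others. Of all listed genes, 402 to 478 were at 0 in a library of Δ*rsrA*, 324 to 346 in Δ*rsrB* and 315 to 405 in Δ*ku70*. POX06533 was listed at 0 in the 3 libraries of Δ*ku70*, and had 4.63, 2.30 and 5.01 FPKM in Δ*rsrA* and 0, 0.46 and 0 FPKM in Δ*rsrB*, so no ratio is given for it.

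Replicates of Δ*rsrA* were close to one another in most members. The SD of log2(FPKM + 1) had a median of 0.13 (Δ*rsrA*), 0.23 (Δ*rsrB*) and 0.36 (Δ*ku70*), and over the other genes it was 0.14, 0.17 and 0.30. The gap between the lowest value of Δ*rsrA* and the highest of the 6 other values had a median of 1.48 on the log2 scale and was at least 1 in 96 members. It was under 0.5 in 2 members. In POX01929 the FPKM was 16.54, 17.18 and 8.67 in Δ*rsrA*, against 4.71, 3.27 and 3.40 in Δ*rsrB* and 2.07, 7.44 and 2.70 in Δ*ku70*, and in POX04512 it was 9.95, 8.0 and 3.39 in Δ*rsrA*, against 2.28, 0.77 and 1.15 in Δ*rsrB* and 1.13, 1.89 and 0.76 in Δ*ku70*. In both genes replicate 3 of Δ*rsrA* was the low one. Over the members as a whole the order was the other way: replicate 3 of Δ*rsrA* was the highest of its strain in 55 members, which is 50.9%, against 30.1% of the other genes, and replicate 1 was the lowest in 52, which is 48.1%, against 33.7%. In Δ*ku70*, replicate 1 was the lowest in 59 members, which is 54.6%, against 43.9% of the other genes. The members were chosen on these same values, and a low value in Δ*ku70* helps a gene reach the limit of 1.5. The order of the libraries is thus partly shaped by the choice, and nothing is read from it.

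In the measure that each limit is set on, the members just inside differed little from the genes just outside. In other measures they could differ widely. For the difference from Δ*ku70*, POX07418 was the last inside, with 1.51, and POX05522 the first outside, with 1.49. For Δ*rsrB*, POX02475 was inside with -0.48 and POX06805 outside with -0.50, although POX06805 was 1.65 higher in Δ*rsrA* than in Δ*ku70*. For the span of the libraries of Δ*ku70*, POX06017 was inside with 1.48 and POX07548 outside with 1.51. In POX06017 the values were 260.19, 240.93 and 237.15 FPKM in Δ*rsrA*, against 88.36, 85.05 and 88.94 FPKM in Δ*rsrB* and 42.70, 120.48 and 107.83 FPKM in Δ*ku70*, so the span came from replicate 1 of Δ*ku70*.

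The choice was repeated with each library left out in turn, and the value of the library left out was then read. With a library of Δ*rsrA* left out, 116, 109 and 113 genes were chosen, and in the library left out 110, 109 and 112 of them (94.8%, 100% and 99.1%) were above the 6 values of Δ*rsrB* and Δ*ku70*. Of the other genes 12.9%, 13.5% and 12.7% were. With a library of Δ*rsrB* left out, 100, 114 and 109 genes were chosen, and the library left out was below the 3 of Δ*rsrA* in every one of them, where 22.3%, 21.4% and 24.2% of the other genes were. With replicate 1, 2 or 3 of Δ*ku70* left out, 129, 117 and 111 genes were chosen, and the library left out was below the 3 of Δ*rsrA* in 121, 117 and 108 of them (93.8%, 100% and 97.3%), where 30.6%, 27.0% and 20.3% of the other genes were. The remaining libraries of the strain took part in each choice and resemble the one left out, so high shares were largely given in advance. The other genes include those lower in Δ*rsrA* and are no matched background. Nothing is read from these shares. Of the 108 genes, 87 were chosen again without replicate 1 of Δ*ku70*, 97 without replicate 2 and 87 without replicate 3.

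Most members were spread singly over the identifiers, which number genes in the lists and stand here for no coordinates. They ran from POX00017 to POX09763, and 92 had no other member within 2 identifiers. In all, 11 members had a member at the identifier next to theirs, in 1 run of 3 and 4 pairs. In the run, POX01938 had 135.63, 150.67 and 171.40 FPKM in Δ*rsrA*, against 50.38, 47.03 and 51.97 FPKM in Δ*rsrB* and 36.97, 47.56 and 42.66 FPKM in Δ*ku70*. POX01939 had 10.10, 8.91 and 10.27 FPKM in Δ*rsrA*, against 0.80, 1.27 and 0.69 FPKM in Δ*rsrB* and 1.80, 1.02 and 1.36 FPKM in Δ*ku70*. POX01940 had 59.08, 50.56 and 59.87 FPKM in Δ*rsrA*, against 1.58, 2.20 and 1.19 FPKM in Δ*rsrB* and 1.56, 2.82 and 3.34 FPKM in Δ*ku70*. The differences from Δ*ku70* were thus unequal along the run, with 1.82, 2.18 and 4.04 on the log2 scale. Strand was not stated for the counting, so fragments of overlapping neighbours cannot be told apart.

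The members of a pair also differed in level and size of difference. These genes were named after their values had been seen. POX04359 averaged 2.95 ± 1.21 FPKM in Δ*rsrA*, against 0.203 ± 0.179 FPKM in Δ*rsrB* and 0.167 ± 0.058 FPKM in Δ*ku70*, and its neighbour POX04360 averaged 275.8 ± 27.6 FPKM in Δ*rsrA*, against 50.9 ± 5.2 FPKM in Δ*rsrB* and 38.5 ± 9.5 FPKM in Δ*ku70* (SD, n = 3 each). POX07855, the neighbour of POX07854, averaged 190.5 ± 18.2 FPKM in Δ*rsrA*, against 50.8 ± 2.3 FPKM in Δ*rsrB* and 54.5 ± 5.0 FPKM in Δ*ku70*. Beside the pair POX01236 and POX01237, POX01238 had 13425.5, 12709.2 and 13411.3 FPKM in Δ*rsrA*, against 456.69, 490.80 and 614.77 FPKM in Δ*rsrB* and 397.34, 830.83 and 1194.03 FPKM in Δ*ku70*. That gene was 4.17 higher in Δ*rsrA* than in Δ*ku70* and is no member, because its values in Δ*ku70* spanned more than 1.5 and its mean in Δ*rsrB* was lower by 0.5.

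Genes that stand next to a member in the order of the identifiers but are no members themselves were also looked at. Of 185 such genes with a mean of at least 1 FPKM, 34 (18.4%) were at least 1 above Δ*ku70* on the log2 scale, against 429 of the 8296 remaining genes (5.17%). The median difference was 0.07 in these neighbours and -0.31 in the remaining genes. Without Δ*ku70* replicate 1 the shares were 15.7% and 4.50%, and with median of ratios scaling they were 27.0% and 9.46%. Of the 34 neighbours, 11 (32.4%) were also within 0.5 of Δ*ku70* in Δ*rsrB*, against 198 of the 429 (46.2%). Without Δ*ku70* replicate 1 the latter shares were 55.2% and 53.6%, and with median of ratios scaling 50% and 52.2%. Genes with adjacent identifiers are not independent of one another, and these shares are a description with no test.

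One member, POX01906, stands directly before the deleted gene in the order of the identifiers. It had 122.76, 118.43 and 93.22 FPKM in Δ*rsrA*, against 9.35, 6.79 and 6.28 FPKM in Δ*rsrB* and 9.42, 4.35 and 5.13 FPKM in Δ*ku70*, a log2 difference from Δ*ku70* of 4.00. On the other side of the deleted gene, POX01908 had 11.83, 11.22 and 12.49 FPKM in Δ*rsrA*, against 15.40, 14.41 and 13.39 FPKM in Δ*rsrB* and 14.87, 18.63 and 25.49 FPKM in Δ*ku70*, a difference of -0.65. POX01905 differed by -0.02, and the median over all genes tested was -0.29. POX01910 was higher by 1.55, with 380.27, 341.08 and 335.41 FPKM in Δ*rsrA*, against 98.63, 80.17 and 61.62 FPKM in Δ*rsrB* and 55.50, 125.74 and 243.31 FPKM in Δ*ku70*, and was not taken because of its spread in Δ*ku70* and its lower mean in Δ*rsrB*. These genes were picked for their place after the values had been seen.

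**Figure D4:**
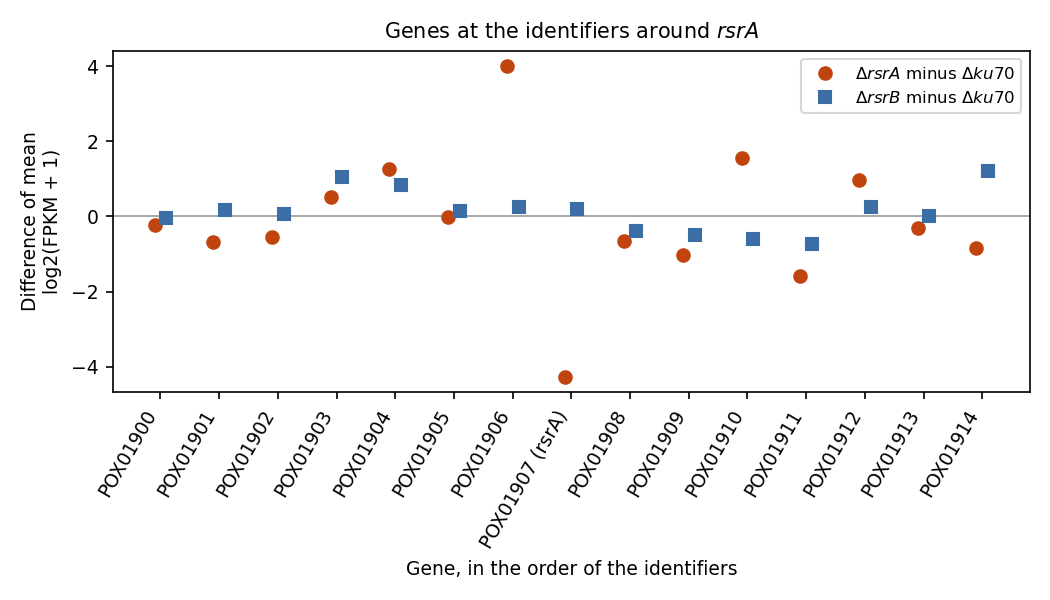
Difference of mean log2(FPKM + 1) of Δ*rsrA* (circles) and Δ*rsrB* (squares) from Δ*ku70* for 15 genes in the order of their identifiers around the deleted gene POX01907. POX01906 is the highest circle with 4.00 and the deleted gene the lowest with -4.27, while the other genes lie between -1.57 and 1.55.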

How the data were processed

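The authors sequenced poly(A) RNA of 9 mycelium samples at BGI and deposited FPKM, with a separate list for each library. BWA, Bowtie2 and RSEM are named in the paper's methods, and bcl2fastq and HISAT2 in the submitters' processing notes. Settings, filters and strandedness are not given in the sources used here. FPKM is relative to the mapped total of a library, so it falls for most genes where a few take more of that total. The 10 highest genes held 10.1% to 10.8% of the FPKM total in Δ*rsrA*, 10.2% to 11.7% in Δ*rsrB* and 10.9% to 13.3% in Δ*ku70*. The paper calls the replicates biological.

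Values were used as deposited, as log2(FPKM + 1), and a difference on this scale understates changes of low genes. Genes with a mean of at least 1 FPKM in the 6 libraries compared were fitted with limma 3.58.1 (lmFit, eBayes with trend, R 4.3.3), with Benjamini-Hochberg adjustment over all genes tested and a threshold of 0.05. The code was checked on simulated data with the spread of Δ*rsrA* and Δ*rsrB*. That spread is smaller than the spread of Δ*ku70*, which the check does not cover.

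The members and lists were chosen with earlier results of these data known. Genes named are *rsrA*, *rsrB*, the 5 members with the largest difference from Δ*ku70*, the 5 with the highest mean in Δ*rsrA*, runs of at least 3 consecutive identifiers and the genes nearest to each limit. Others were named after their values were seen. Same-numbered libraries of Δ*rsrA* and Δ*rsrB* deviated together in replicates 1 and 3 (r = 0.581 and 0.470). For replicate 2 r was 0.101, and these libraries did not correlate best with their own number. This correlation is the only source of that pairing. Same-numbered libraries of Δ*rsrA* and Δ*ku70* (-0.06, -0.06 and 0.09) and of Δ*rsrB* and Δ*ku70* (0.05, -0.17 and 0.26) were not paired. Alternatives were other scalings, a pseudocount of 0.1, other filters, 1 fit over all 9 libraries, a replicate block and leaving out each library.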

Additional observations from a re-analysis of the deposited data

How the results depend on the processing

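The number of genes that met the limits was 105 with a pseudocount of 0.1 (83 of the 108 among them) and 111 with equal library totals (99). It was 195 with median of ratios scaling (all 108) and 166 with quantile normalization (100), so it depends on the scaling. With 1 library left out it was 100 to 129. The count of members raised in Δ*rsrA* against Δ*ku70* was 105 to 108 with 1 library left out, where 4.36% to 13.2% of all genes tested were. The members were chosen on the same values, and nothing is read from this count or those that follow. POX06017 missed the threshold without each library of Δ*rsrA*, POX01929 without replicate 1 or 2 of Δ*rsrA* or replicate 3 of Δ*ku70*, and POX04512 without replicate 1 or 2 of Δ*rsrA*. Against Δ*rsrB* the count raised was 108 wherever all members were tested, and 11.3% to 26.1% of all genes were called raised. At a mean of at least 5 FPKM the count was 94 of 94 tested in both comparisons. There 10.1% of all genes were called raised against Δ*ku70* and 15.4% against Δ*rsrB*. The count changed in Δ*rsrB* against Δ*ku70* was 0 to 1, the 1 being without replicate 1 of Δ*ku70*, and 0 under the other alternatives. Of all genes tested, 0.837% to 13.1% were called in this comparison. With the replicate block the counts were 108, 108 and 0, where 6.76%, 17.3% and 1.73% of all genes were called. The block changed no call of a member. Between each mutant and Δ*ku70* the libraries share only a number. Of these, only the libraries of replicate 3 of Δ*rsrB* and Δ*ku70* correlated best with their own number. The shares of genes next to a member and the overlap of Δ*rsrB* with Δ*ku70* without replicate 1 of Δ*ku70* were recomputed after the data had been seen. The unknown depth limits the ratios of genes near 0.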

Other observations

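Of the genes outside the run left out, 13 met every limit but the span of the libraries of Δ*ku70*. Their log2 difference between Δ*rsrA* and Δ*ku70* was 1.51 to 4.21, with a median of 1.98, and replicate 1 of Δ*ku70* was the lowest of its strain in 11 of them. The largest, POX00919, had 250.19, 324.24 and 422.09 FPKM in Δ*rsrA*, against 10.58, 24.67 and 44.35 FPKM in Δ*rsrB* and 7.88, 19.43 and 29.09 FPKM in Δ*ku70*. It was higher in Δ*rsrA* than in the other strains in all libraries, and in each strain its values spread widely.

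Directly before the run POX01938 to POX01940, POX01937 had 21.99, 24.55 and 28.00 FPKM in Δ*rsrA*, against 4.89, 5.73 and 4.37 FPKM in Δ*rsrB* and 3886.07, 4.32 and 4.62 FPKM in Δ*ku70*. The value of replicate 1 of Δ*ku70* was far above the 8 others. Between POX07962 and POX07964, which are both members, POX07963 was higher by 1.24 in Δ*rsrA* than in Δ*ku70*, and POX07961 before them by 1.96. These genes were picked after their values had been seen.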
